A study of Mus musculus with 6 samples.

Results

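The genes described here are 31 genes of glycolysis and of the response to low oxygen, out of 18516 gene symbols with a probe on the array. They were chosen by symbol, and each was measured by the probe with the highest mean signal over the 6 arrays. They comprise 15 glycolytic enzymes, 3 glucose and lactate transporters, 2 pyruvate dehydrogenase kinases, 3 genes of the hypoxia-inducible factor (HIF) and its oxygen sensors, and 8 other hypoxia targets. Ankrd37 was below background on 1 array, and the other members were well above background on all 6 arrays.

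Total RNA of mouse embryonic stem cells (ESCs) was measured on 6 one-colour Agilent arrays, 2 in each of 3 groups, after growth on gelatin in medium with 15% serum and the cytokine LIF. The Flag-Dppa2 knockout cells were 15-2-/- (no functional Dppa2, also called ECAT15-2) and 15-1CT/CT (a conditional targeted allele of the neighbouring paralogue Dppa4, ECAT15-1, on both chromosomes), and carried a piggyBac vector that makes Flag-tagged Dppa2 from the ubiquitous CAG promoter. The mock knockout cells were the same 15-2-/-, 15-1CT/CT lines with the piggyBac-CAG vector without Dppa2. The wild-type cells were 15-1+/+, 15-2+/+ and were not transduced. Replicates 1 and 2 are lines from blastocysts of 2 different mothers, on a mixed background that includes 129Sv and C57/BL6. Flag-Dppa2 and mock arrays of the same number therefore share a knockout line. With the wild-type array of that number they have only the mother in common. A comparison with wild type also contains the Dppa4 allele, the transduction and a difference in Y-linked signal, which is given below with Pdk3. These apply to every member and not only to X-linked ones.

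Levels are log2 signals minus the 75th percentile of the array's log2 signals, so they compare arrays and not genes. Dppa2 checks the labels. It stood at -0.05 and 0.35 with Flag-Dppa2, at -2.09 and -2.003 in mock, and at 2.13 and 2.07 in wild type. Dppa4 stood at 3.60 and 3.78 with Flag-Dppa2, at 3.47 and 3.67 in mock, and at 2.96 and 2.99 in wild type. All 10 measured ESC markers were well above background on all 6 arrays. The 2 wild-type arrays differed by more than the scanner's 95% error limit at 0.487% of 14986 bright spots, where 5% are due, against 24.7% between the Flag-Dppa2 arrays and 22.2% between the mock arrays. They differed by less than this error and may be 1 sample, so wild-type values are given without an SD. Averaging the wild-type arrays into 1 sample left 0 features called in any comparison, with smallest adjusted p of 0.121, 0.0979 and 0.348 for mock against wild type, Flag-Dppa2 against mock and Flag-Dppa2 against wild type. The numbers of features with an unadjusted p under 0.05 were then 2279, 1467 and 1563 of 18755. Calls below come from limma on all 6 arrays as separate samples and hold only if the wild-type arrays are separate samples. P-values measure the spread between these arrays. Both Flag-Dppa2 arrays were on a slide of their own, so slide and Flag-Dppa2 cannot be told apart, while mock and wild type shared a slide.

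Glycolysis breaks glucose down to pyruvate, which lactate dehydrogenase turns into lactate or pyruvate dehydrogenase passes into the citric acid cycle. When oxygen is scarce, the prolyl hydroxylases encoded by the Egln genes no longer mark the HIF alpha subunits for destruction. HIF then binds hypoxia response elements and raises glucose transporters, glycolytic enzymes, pyruvate dehydrogenase kinases and genes such as Vegfa and Bnip3. Mouse ESCs use glycolysis heavily even where oxygen is present, and the balance between glycolysis and respiration is known to change as they leave the naive state.

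The core of the hypoxia response element is ACGTG or GCGTG. These letters were searched on both strands in RefSeq promoter windows (GRCm38.p6), which run from 250 bases before to 50 after a gene's start. An ACGTG match inside the palindrome CACGTG, the E-box of other factors, counts once on each strand. Windows were found for 30 of the 31 members, 45 in all with alternative starts, and 36 of them (80%) held a core, against 43.8% of all 32851 windows. The share was 80.8% of 26 windows of glycolytic enzymes and 78.6% of 14 windows of the oxygen sensors, Hif1a and the other hypoxia targets. A match is a description of the letters, and the windows of a gene can overlap. The windows of the 3 members called below and of Ddit4, the member furthest below wild type with Flag-Dppa2, are shown 5′ to 3′ on the gene's strand with the cores in capitals. They are chr12:54203825-54204124 for Egln3, chr6:71632868-71633167 for Kdm3a, chrX:93832101-93832400 for Pdk3 and chr10:59951721-59952020 for Ddit4, all on the minus strand.
Egln3: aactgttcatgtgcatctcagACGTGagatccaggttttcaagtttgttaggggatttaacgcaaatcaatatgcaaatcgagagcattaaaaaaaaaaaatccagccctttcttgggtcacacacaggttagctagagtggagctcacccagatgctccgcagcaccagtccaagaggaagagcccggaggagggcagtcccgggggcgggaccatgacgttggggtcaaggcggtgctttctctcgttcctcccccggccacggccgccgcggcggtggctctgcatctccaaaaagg
Kdm3a: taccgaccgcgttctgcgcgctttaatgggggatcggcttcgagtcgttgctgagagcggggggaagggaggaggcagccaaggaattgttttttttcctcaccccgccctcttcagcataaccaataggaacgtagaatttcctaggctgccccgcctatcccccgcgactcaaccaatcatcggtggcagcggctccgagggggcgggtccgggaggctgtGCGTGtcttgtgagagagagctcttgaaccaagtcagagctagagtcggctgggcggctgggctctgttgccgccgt
Pdk3: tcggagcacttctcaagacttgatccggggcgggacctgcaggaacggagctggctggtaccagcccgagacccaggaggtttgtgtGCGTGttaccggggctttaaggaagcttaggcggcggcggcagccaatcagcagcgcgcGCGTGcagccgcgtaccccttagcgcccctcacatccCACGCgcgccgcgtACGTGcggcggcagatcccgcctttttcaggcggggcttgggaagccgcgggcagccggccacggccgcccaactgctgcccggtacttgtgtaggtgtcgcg
Ddit4: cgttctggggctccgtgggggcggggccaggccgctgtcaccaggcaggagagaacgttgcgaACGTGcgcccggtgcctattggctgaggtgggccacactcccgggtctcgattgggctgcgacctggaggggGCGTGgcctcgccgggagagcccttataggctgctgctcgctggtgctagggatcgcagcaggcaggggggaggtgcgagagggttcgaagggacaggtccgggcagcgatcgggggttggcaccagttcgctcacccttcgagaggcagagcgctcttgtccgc
The first base of the only match lies at -229 from the start in Egln3 and at -27 in Kdm3a, whose other 2 windows hold none. Pdk3 has 4 matches, the farthest at -163 and the nearest at -53, and Ddit4 has matches at -187 and -115.

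Setting mock knockout against wild type asks what losing Dppa2 changes, together with the Dppa4 allele, the transduction and the difference in Y-linked signal. Glycolytic enzymes as a class lay near wild type, most oxygen sensors and hypoxia targets lay below it, and 3 members passed the test. Egln3 and Pdk3 were lower and Kdm3a was higher in mock. Among all 18755 features tested, 6.12% were called in this comparison, 2.47% higher and 3.65% lower, so calls were not particular to the 31 members. Whether the members differ from other genes in this was not tested.

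**Figure D1:**
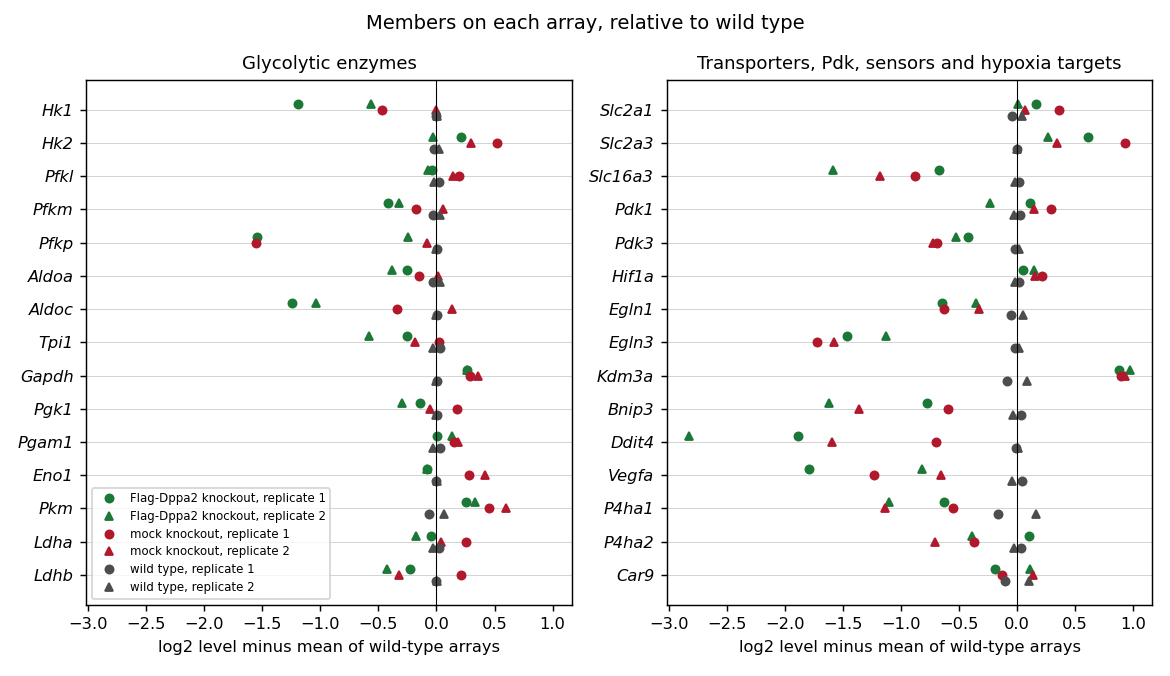
Level of 30 members on each array minus the mean of the 2 wild-type arrays (log2, horizontal axis), with glycolytic enzymes left and the other members right; Ankrd37, which reaches -9.31, is left out. Pfkp, Pdk3, Egln1, Egln3, Slc16a3, Bnip3, Ddit4, Vegfa and P4ha1 lie left of wild type on all 4 knockout arrays. Gapdh, Pkm, Slc2a3, Hif1a and Kdm3a lie right of it on all 4.

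Egln3 encodes a prolyl hydroxylase that marks HIF for destruction and is itself a HIF target. Its level was -1.01 and -0.86 in mock, against 0.70 and 0.73 in wild type. Both mock arrays were below both wild-type arrays by more than the spread within either group. Egln3 was 3.13-fold lower in mock (log2 difference -1.65, SE 0.15, limma adjusted p = 0.0171). The adjusted p was 0.192 with the wild-type arrays averaged, and it ran from 0.0129 to 0.192 over 15 alternatives, of which 10 kept the call. With Flag-Dppa2 the level was -0.75 and -0.41, above both mock arrays and below both wild-type arrays. Neither the difference from mock (log2 0.35, adjusted p = 0.43) nor that from wild type (log2 -1.30, adjusted p = 0.0573) passed. The related sensor gene Egln1 stood at -1.49 and -1.20 with Flag-Dppa2, at -1.47 and -1.17 in mock, and at -0.90 and -0.79 in wild type. Its mock arrays lay below wild type without passing (log2 difference -0.48, adjusted p = 0.167), and a second probe gave -0.52.

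Kdm3a encodes a histone lysine demethylase that needs oxygen and is a HIF target. It stood at 3.28 and 3.31 in mock, against 2.30 and 2.47 in wild type. The mock arrays did not overlap with wild type, and Kdm3a was 1.88-fold higher (log2 difference 0.91, SE 0.11, limma adjusted p = 0.0271). The adjusted p was 0.254 with the wild-type arrays averaged and 0.0507 with the replicate number as a block, and it ran from 0.015 to 0.264 over 15 alternatives, of which 8 kept the call. A second, dimmer probe gave a difference of 0.93 and also passed when every probe was tested (limma adjusted p = 0.0317). With Flag-Dppa2 the level was 3.26 and 3.36, level with mock (log2 difference 0.02) and 1.90-fold above wild type without passing (adjusted p = 0.0573).

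Pdk3 encodes a kinase that switches off pyruvate dehydrogenase and so keeps pyruvate from the citric acid cycle. Its level was -0.06 and -0.10 in mock, against 0.61 and 0.64 in wild type. The groups did not overlap, and Pdk3 was 1.63-fold lower in mock (log2 difference -0.70, SE 0.09, limma adjusted p = 0.0343). The adjusted p was 0.328 with the wild-type arrays averaged and 0.0645 with the replicate block, and it ran from 0.0238 to 0.328 over 15 alternatives, of which 7 kept the call. A second probe gave -0.71 and passed when every probe was tested (limma adjusted p = 0.0494). With Flag-Dppa2, Pdk3 lay between the other groups at 0.20 and 0.09, 0.23 above mock on the log2 scale (adjusted p = 0.408). Pdk3 is on the X chromosome. Signals of the Y-linked genes Ddx3y and Eif2s3y exceeded background in wild type but on none of the 4 knockout arrays, so the sex of the lines and the genotype cannot be told apart. Of the 451 X-linked genes tested, 31 (6.87%) were called lower and 12 (2.66%) higher, against 3.65% and 2.47% of all features, and their median log2 difference was -0.02. The other kinase of this kind among the members, Pdk1, had 2.50 and 2.16 with Flag-Dppa2, 2.68 and 2.54 in mock, and 2.42 and 2.37 in wild type. Its mock arrays lay just above wild type (log2 difference 0.22, adjusted p = 0.422). A dimmer probe of Pdk1 gave 0.63 and did not pass.

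**Figure D2:**
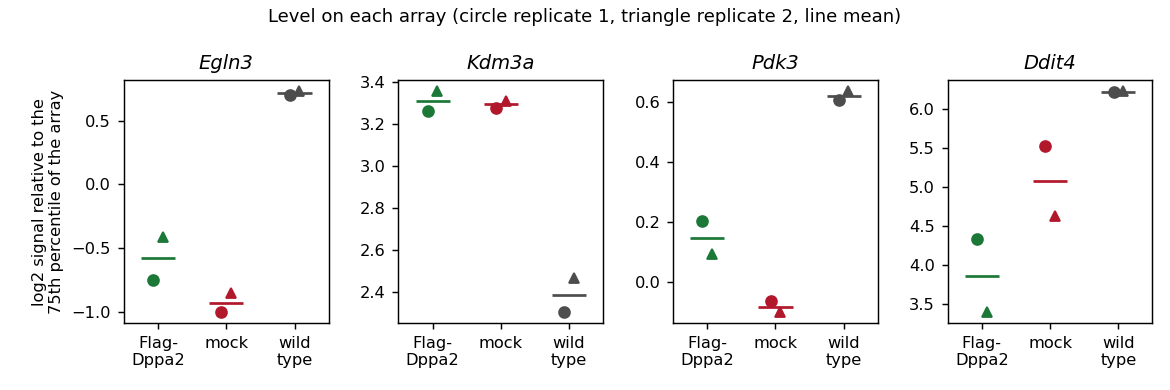
Level of Egln3, Kdm3a, Pdk3 and Ddit4 on each array (log2 relative to the 75th percentile, vertical axis, with its own range and not from 0 in each panel) in Flag-Dppa2 knockout, mock knockout and wild type; circles are replicate 1, triangles replicate 2, lines group means. Kdm3a is level in both knockout groups at 3.26 to 3.36, whereas Egln3, Pdk3 and Ddit4 each fall in 3 separate ranges.

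Most other hypoxia targets lay below wild type in both knockout groups without passing the test. Of the 11 oxygen sensor, Hif1a and other hypoxia target genes, 8 had both mock arrays below both wild-type arrays and 2 had both above. Over all features those shares were 28.6% and 37.2%, which the closeness of the wild-type arrays makes large. The 11 genes had a median log2 difference of -0.84 (-0.59 in line 1 and -0.71 in line 2), against 0.05 over all features, and 1 was called higher and 1 lower. Hif1a itself, the oxygen-regulated HIF subunit, had 1.59 and 1.68 with Flag-Dppa2, 1.75 and 1.70 in mock, and 1.56 and 1.52 in wild type. The differences of the Hif1a transcript from wild type were therefore 0.10 and 0.18 for Flag-Dppa2 and mock, and neither passed. Epas1 is not a member and was listed among the HIF pathway regulators. It had 3.24 and 4.11 with Flag-Dppa2, 3.13 and 4.41 in mock, and 2.35 and 2.25 in wild type. Every knockout array lay above both wild-type arrays, with differences of 1.47 in mock and 1.37 with Flag-Dppa2. Neither passed (limma adjusted p = 0.173 and 0.241). Of the 7 tested regulators, 5 lay above wild type in mock and 2 below.

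Ddit4, an inhibitor of the mTOR kinase that responds to hypoxia and other stress, stood at 4.33 and 3.39 with Flag-Dppa2, at 5.52 and 4.62 in mock, and at 6.21 and 6.23 in wild type. None of the 3 groups overlapped with another, as was also so for Egln3, Pdk3, Hif1a, Pfkl, Gapdh, Eno1, Pkm and Ldha. Over all features, pairs of groups were often apart in this way. In mock against wild type 37.2% were higher and 28.6% lower, and in Flag-Dppa2 against wild type 33.2% and 27.1%. In Flag-Dppa2 against mock 18.1% were higher and 19% lower. All 3 pairs at once were not counted over all features. In each replicate Ddit4 was lower with Flag-Dppa2 than in mock. The log2 difference was -1.14 for mock against wild type (adjusted p = 0.196), -2.36 for Flag-Dppa2 against wild type (5.13-fold, adjusted p = 0.097), and -1.21 for Flag-Dppa2 against mock (adjusted p = 0.367). In lines 1 and 2 the last difference was -1.19 and -1.23, nearly the same. Replicate 2 was the lower one in both knockout groups.

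Bnip3, a mitochondrial protein of mitophagy, had 1.97 and 1.13 with Flag-Dppa2, 2.16 and 1.39 in mock, and 2.78 and 2.71 in wild type. It lay 1.97-fold below wild type in mock (log2 -0.98, SE 0.39, adjusted p = 0.208), with replicate 2 the lower one in both knockout groups. Vegfa, the angiogenic growth factor, had -1.26 and -0.29 with Flag-Dppa2, -0.70 and -0.12 in mock, and 0.57 and 0.49 in wild type. Here replicate 1 was the lower one, and the mock difference was -0.94 (SE 0.39, adjusted p = 0.216). A dimmer probe of Vegfa had -1.31 and -0.96 in mock, against 0.02 and 0.05 in wild type, a difference of -1.17 that passed when every probe was tested (limma adjusted p = 0.0497). The remaining tested probe gave -0.96 and did not pass.

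P4ha1 and P4ha2 encode prolyl hydroxylases that mature collagen. P4ha1 had -0.74 and -1.21 with Flag-Dppa2, -0.66 and -1.24 in mock, and -0.27 and 0.06 in wild type. Its mock difference was -0.84 (SE 0.29, adjusted p = 0.161), and a second probe gave -0.60. P4ha2 had 1.46 and 0.96 with Flag-Dppa2, 0.98 and 0.64 in mock, and 1.38 and 1.32 in wild type. Its mock arrays lay below wild type (log2 -0.54, adjusted p = 0.212), while its Flag-Dppa2 arrays spanned the wild-type level. Car9, a carbonic anhydrase of the cell surface and a widely used hypoxia marker, had -2.83 and -2.53 with Flag-Dppa2, -2.77 and -2.50 in mock, and -2.74 and -2.53 in wild type, and the 3 groups overlapped throughout.

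Ankrd37, a HIF target with ankyrin repeats, varied more than any other member between replicates. It had 0.48 and -1.36 with Flag-Dppa2, -1.10 and -7.73 in mock, and 1.59 and 1.57 in wild type. Mock replicate 2 was not above background, so 1 of 2 mock arrays measured the gene. Set against the dimmest level called well above background on that array, mock replicate 2 was at least 152-fold below the wild-type mean. No difference passed (adjusted p = 0.194 for mock against wild type and 0.562 for Flag-Dppa2 against mock). Leaving out mock replicate 1 gave a call (limma adjusted p = 0.0489), but it rests on the dim array alone, whose value is only a bound and whose spread is taken from the other groups.

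Of 13 tested fibroblast markers, 12 lay below wild type in mock, as did 8541 of all 18755 features, with a median log2 difference of -2.54. This median is the value of Dcn, which neither mock array measured above background. Set against the dimmest levels called well above background, Dcn was at least 3.87-fold lower in mock. In Flag-Dppa2 against mock 9 of 13 lay above 0, as did 9184 of all 18755 features, with a median of 0.59. The 11 oxygen sensor, Hif1a and hypoxia target genes had a median of -0.02 there. Of 16 such markers, 11 and 8 were above background with Flag-Dppa2, 9 and 6 in mock, and 11 and 12 in wild type. Their summed linear signal relative to the 75th percentile was 3.26 to 3.70 with Flag-Dppa2, 2.75 to 2.88 in mock and 6.80 to 7.13 in wild type. Col6a1, Lum and Fap were below background on every array, and Fbn1, Loxl1, Dcn and Twist2 on both mock arrays. Of the 13 tested, 4 were called lower in mock against wild type, against 3.65% of all features. In Flag-Dppa2 against mock 3 (Mmp2, Fbn1 and Loxl1) were called higher, against 0.704% of all features. With the replicate block these 3 no longer passed (adjusted p = 0.0571, 0.0664 and 0.0836). Of 8 trophectoderm markers, 7 were above background on each Flag-Dppa2 array, 6 and 7 in mock and 7 on each wild-type array, with sums of 43.1 to 141 with Flag-Dppa2, 27.1 to 47.7 in mock and 77.8 to 78.6 in wild type. Elf5 was below background on all. Primitive endoderm markers summed to 2.50 to 3.66 with Flag-Dppa2, 1.87 to 1.90 in mock and 2.03 to 2.08 in wild type, with 9 or 10 of 10 above background on the knockout arrays and 7 or 8 in wild type, where Gata4 and Pdgfra were not. In mock against wild type 1 of the 10 primitive endoderm markers was called lower. Of the 10 ESC markers 9 lay above wild type there, with a median log2 difference of 0.49. For 8 of them both mock arrays were above both wild-type arrays, against 37.2% of all features. Only Utf1 was called, higher in mock (0.87, limma adjusted p = 0.0384), against 2.47% of all features. The part of these markers in the result was not tested, and fewer cells of a type and less RNA per cell cannot be told apart in bulk RNA.

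Among the transporters, the lactate exporter and the glucose importers lay on opposite sides of wild type. Slc16a3, the lactate exporter of glycolytic cells and a HIF target, had 4.24 and 3.32 with Flag-Dppa2, 4.03 and 3.73 in mock, and 4.93 and 4.89 in wild type. Every knockout array was below wild type, and the mock difference was -1.03 (SE 0.34, adjusted p = 0.146). Slc2a3, a glucose transporter of high affinity, had 6.44 and 6.10 with Flag-Dppa2, 6.76 and 6.18 in mock, and 5.83 and 5.83 in wild type. All 4 knockout arrays were above wild type, with a mock difference of 0.64 (SE 0.24, adjusted p = 0.189). Slc2a1, the basal glucose transporter, had 6.01 and 5.86 with Flag-Dppa2, 6.20 and 5.92 in mock, and 5.80 and 5.89 in wild type, a mock difference of 0.21 that did not pass.

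None of the 15 glycolytic enzymes was called by limma in mock against wild type, and 4 (Eno1, Gapdh, Hk2 and Pkm) had an unadjusted p under 0.05, as did 5120 of all 18755 features (27.3%). Their median log2 difference was 0.06, close to the 0.05 of all features, and 7 had both mock arrays above wild type and 1 had both below, where 37.2% of all features were above and 28.6% below. Pkm, pyruvate kinase, had 5.53 and 5.60 with Flag-Dppa2, 5.72 and 5.87 in mock, and 5.21 and 5.33 in wild type. It was the enzyme nearest to a call, 1.44-fold above wild type in mock (log2 0.53, SE 0.11, adjusted p = 0.0705). Gapdh, glyceraldehyde-3-phosphate dehydrogenase, had 7.67 and 7.68 with Flag-Dppa2, 7.70 and 7.77 in mock, and 7.41 and 7.41 in wild type. This common reference gene was thus 0.32 above wild type on the log2 scale in mock (SE 0.09, adjusted p = 0.107), and a second probe gave 0.33. With an intensity trend in limma, Gapdh and Pkm passed (limma adjusted p = 0.0295 and 0.0324). Scaling each array to its median in place of its 75th percentile shifted the median of all features by 0.23 in this comparison, by -0.12 in Flag-Dppa2 against mock and by 0.11 in Flag-Dppa2 against wild type. It gave 1713 higher and 666 lower calls in mock against wild type, against 464 and 684. Pkm and Hk2 then passed at 0.76 and 0.64 (limma adjusted p = 0.0462 and 0.0426), and Pdk3 no longer did (-0.47, limma adjusted p = 0.0545).

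Hk1 and Pfkp act at the entry to glycolysis. Hk1, a hexokinase, had 1.54 and 2.18 with Flag-Dppa2, 2.27 and 2.73 in mock, and 2.73 and 2.74 in wild type. Only replicate 1 of mock was below wild type, and the mock difference of -0.24 (SE 0.28) was smaller than its error. The 3 tested dimmer probes of Hk1, matched to another transcript, gave -0.02 to 0.16. Pfkp, the platelet form of phosphofructokinase, had 0.53 and 1.83 with Flag-Dppa2, 0.52 and 2.00 in mock, and 2.08 and 2.07 in wild type. The knockout line of replicate 1 was low with either vector and that of replicate 2 was near wild type, so the mock difference of -0.81 had an SE of 0.67. A much dimmer Pfkp probe gave -0.11. The aldolase gene Aldoa had 8.22 and 8.08 with Flag-Dppa2, 8.32 and 8.48 in mock, and 8.44 and 8.49 in wild type. Ldha, the lactate dehydrogenase subunit that favours lactate, had 7.24 and 7.11 with Flag-Dppa2, 7.53 and 7.32 in mock, and 7.31 and 7.26 in wild type. The other 8 enzymes (Hk2, Pfkl, Pfkm, Tpi1, Pgk1, Pgam1, Eno1 and Ldhb) had mock differences from -0.08 for Tpi1 to 0.41 for Hk2.

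**Figure D3:**
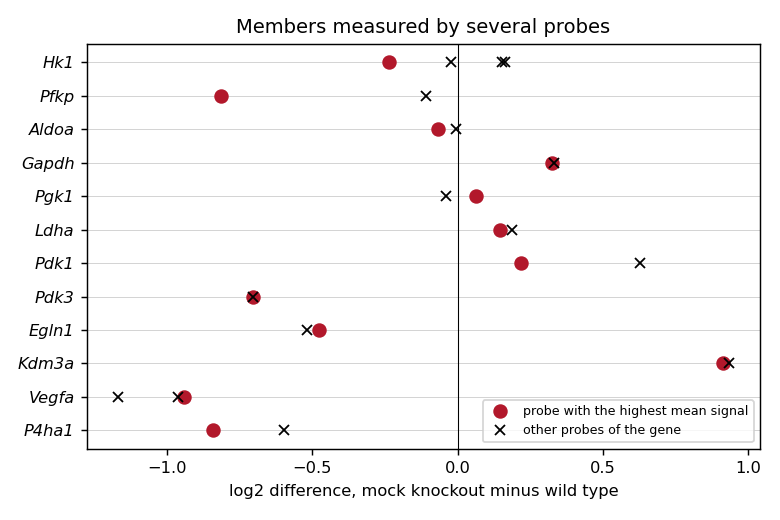
Log2 difference between mock knockout and wild type (horizontal axis) for the 12 members with more than 1 tested probe; red circles are the probe used, crosses the other 15 tested probes. Of these, 12 have the sign of the probe used, with the crosses of Kdm3a and Pdk3 on their circles and those of Hk1 on both sides of 0.

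The comparison of Flag-Dppa2 with mock asks what the return of Dppa2 changes within the same knockout lines. No member was called by limma, where 0.741% of all features were (0.704% higher and 0.0373% lower), and 3 of 31 (Aldoc, Ddit4 and Eno1) had an unadjusted p under 0.05, as did 2514 of all features (13.4%). Adjusted p ran from 0.144 for Aldoc to 0.987 for P4ha1. All 15 glycolytic enzymes nevertheless had a mean below mock, and for 13 of them both Flag-Dppa2 arrays were below both mock arrays, against 19% of all features. Within lines, 14 of 15 were below mock in both, against 36% of all features, and Pfkp was the exception. No enzyme was above mock in both lines, against 34.7% of all features. These counts rest on the probe used for each gene. A much dimmer Pfkp probe gave 0.34 and was above mock in both lines (-4.35 and -3.13 against -4.57 and -3.60). Of the 15 other tested probes of members, 13 had the sign of the probe used. The median log2 difference of the 15 enzymes was -0.27 (-0.28 in line 1 and -0.27 in line 2), against -0.01 over all features and -0.04 over the 854 features with a mean level of at least 5. Of these 854 bright features, 550 were below 0 and 387 were below 0 in both lines. For 194 of them both Flag-Dppa2 arrays were below both mock arrays. In the same comparison the 10 ESC markers had a median of -0.23, with 8 below 0 and 7 below 0 in both lines, and the 10 primitive endoderm markers had a median of 1.22, with 8 above 0. The 2 ESC markers above 0 were Pou5f1 (1.48), with both Flag-Dppa2 arrays above both mock arrays, and Klf2 (0.04). None of the ESC and primitive endoderm markers was called in this comparison, and their part in the result was not tested. The 17 tested further glycolysis genes, listed below, had a median of -0.06 in this comparison, with 10 below 0 and 7 above. In both lines 7 of them were below mock and 6 above. The 15 enzymes are not independent of each other, and the slide cannot be told apart from Flag-Dppa2 here. With only the 4 knockout arrays in the fit, limma called 0 features of any kind, and 1467 had an unadjusted p under 0.05.

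**Figure D4:**
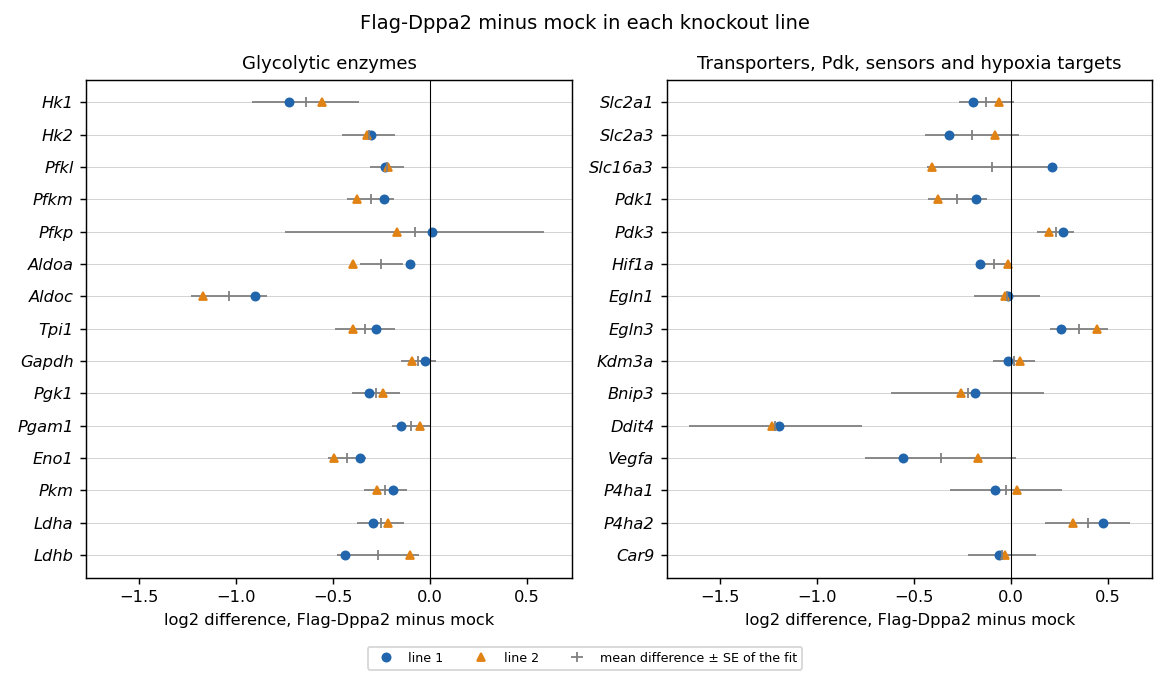
Log2 difference between Flag-Dppa2 and mock (horizontal axis) in knockout line 1 (circles) and line 2 (triangles), with the mean and the SE of the limma fit as grey lines, for 30 members without Ankrd37. The enzymes on the left lie at or left of 0 in both lines, apart from Pfkp in line 1 at 0.01, and the other members on the right lie on both sides.

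Aldoc, the aldolase of brain and a HIF target, was the enzyme with the lowest adjusted p. It had 0.50 and 0.71 with Flag-Dppa2, against 1.40 and 1.88 in mock and 1.75 and 1.74 in wild type. Flag-Dppa2 was below mock in both lines (-0.90 and -1.17), with a mean log2 difference of -1.04 (SE 0.20, 2.05-fold, adjusted p = 0.144, and 0.167 with the replicate block). Hk1 had the next largest difference, with -0.73 and -0.56 in lines 1 and 2 (adjusted p = 0.435), and its 3 tested dimmer probes gave mean differences from -0.97 to -0.74. Eno1, enolase, had 3.20 and 3.20 with Flag-Dppa2, against 3.57 and 3.70 in mock and 3.28 and 3.29 in wild type. Its difference from mock was -0.43 (adjusted p = 0.19), which left it 0.08 below wild type on the log2 scale. The smallest differences among the enzymes were those of Gapdh (-0.06), Pfkp (-0.08) and Pgam1 (-0.10), and the remaining 9 lay between -0.34 for Tpi1 and -0.22 for Pfkl.

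The other 16 members had a median log2 difference between Flag-Dppa2 and mock of -0.07, with both Flag-Dppa2 arrays above mock for 2 of them, Egln3 and Pdk3, and below for 3, Pdk1, Hif1a and Ddit4. Over all features 18.1% were above and 19% below in this way. The 8 oxygen sensor and hypoxia target genes with both mock arrays below wild type went both ways. Differences from mock were below 0 for Egln1 and P4ha1 (-0.02 each), Bnip3 (-0.22), Vegfa (-0.36) and Ddit4 (-1.21). They were above 0 for Egln3 (0.35), P4ha2 (0.40) and Ankrd37 (3.97, with 1 mock array below background). Dppa2 itself was called higher with Flag-Dppa2 than in mock (4.59-fold, limma adjusted p = 0.0267) but not with the replicate block (0.0664), and stayed 3.87-fold below wild type (limma adjusted p = 0.0414).

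The comparison of Flag-Dppa2 with wild type asks what still differs after Dppa2 was returned, and it shares the Flag-Dppa2 arrays with the comparison above and the wild-type arrays with the first. No member was called by limma, against 0.517% of all features (0.144% higher and 0.373% lower), and 15 of 31 had an unadjusted p under 0.05, as did 4045 of all features (21.6%). Egln3 (2.46-fold lower) and Kdm3a (1.90-fold higher) came nearest, both at adjusted p = 0.0573, and both passed with normexp background correction (limma adjusted p = 0.037 and 0.033) and with an intensity trend (0.0442 and 0.0416). The median log2 difference was -0.22 over the glycolytic enzymes and -0.87 over the 11 oxygen sensor, Hif1a and hypoxia target genes, against 0.03 over all features. Of the enzymes, 11 had both Flag-Dppa2 arrays below wild type and 2, Gapdh and Pkm, had both above. Of the 11 genes, 7 were below and 2, Hif1a and Kdm3a, above, where 27.1% of all features were below and 33.2% above. Aldoc (2.20-fold below wild type, adjusted p = 0.0871) and Ddit4 were the next lowest in adjusted p.

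Further genes of these pathways were listed for context with earlier results of these data known. Of 25 further hypoxia targets, 23 were tested, with a median of -0.16 in mock against wild type. There 2 were called lower and none higher, where 3.65% and 2.47% of all features were. Stc2, a secreted glycoprotein, had -1.90 and -1.87 in mock, against 0.90 and 1.02 in wild type, 7.17-fold lower (limma adjusted p = 0.00558). With Flag-Dppa2 it had -1.29 and -1.15 and was 4.52-fold below wild type (limma adjusted p = 0.0239), the only one of the 23 called there. Car12, a carbonic anhydrase, was above background on no mock array and was at least 9.19-fold lower in mock than in wild type (limma adjusted p = 0.0192). Its Flag-Dppa2 arrays, at -3.19 and -2.81 against -6.94 and -5.82 in mock, were above background. They did not pass against mock (at least 5.08-fold higher, adjusted p = 0.0707). Of 22 further glycolysis genes, 17 were tested and 1 was called, where 6.12% of all features were in mock against wild type. This was Pgam2, the muscle form of phosphoglycerate mutase. It had -2.36 and -2.36 with Flag-Dppa2, -2.54 and -2.46 in mock, and -0.53 and -0.45 in wild type, 3.66-fold and 4.03-fold below wild type (limma adjusted p = 0.0239 and 0.00667). None of 7 tested HIF pathway regulators was called by limma in any comparison (3, 1 and 3 had an unadjusted p under 0.05 in mock against wild type, Flag-Dppa2 against mock and Flag-Dppa2 against wild type), and none of the tested genes of these 3 lists was called between Flag-Dppa2 and mock. With the wild-type arrays averaged none of these genes passed.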

How the data were processed

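The deposited intensity values are scanner signals from Agilent Feature Extraction 10.7.3.1, which, per the file headers, subtracts background, removes spatial trends and replaces very dim signals by surrogates, without scaling between arrays; its flags (other values, 0 or 1, per the file headers) mark spots that are outliers or well above background. The deposited log2 values of the series matrix were made by the authors with GeneSpring GX11, per the series' design text; they have the same quartiles in every column, as after quantile normalization, are not centred, have column medians of 5.84, and were used as 1 alternative. The headers name build mm9, so no probe positions are given.

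Of 45018 spots per array, 1639 control spots and outlier spots were left out, and no spot was saturated. On each array 55.9% to 60.3% of probes were well above background, with a 75th percentile of 715 to 853 intensity units. With 2 arrays a group, it is their number that sets the precision. Log2 signals were averaged per probe, and 41059 of 41174 probes were complete. RefSeq accessions named 27143 probes with 1 symbol each and left 13916 without. Each array's 75th percentile was subtracted. With 1 probe per symbol and a signal well above background on at least 2 arrays, 18755 features were fitted with limma 3.58.1 (R 4.3.3; lmFit, eBayes) over 3 groups, and called at a two-sided Benjamini-Hochberg adjusted p under 0.05 over all of them. The fit was tested on simulated data. The files hold no mean signal, so the planned normexp alternative (offset 50) used the median signal.

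Same-numbered Flag-Dppa2 and mock arrays share a cell line, and their deviations from the group means correlated at 0.59; for wild type the correlations were -0.03 with mock and 0.01 with Flag-Dppa2. The fit has no block. Members and lists were chosen with earlier results of these data known. Members are given in full if called or if a log2 difference reached 0.5, and the others by level or range. Genes of the other pathway lists are given if called. Called cell type markers are given by count or by name for the comparisons that include mock. Epas1, Pou5f1 and Klf2 were named after seeing the data. The Y-linked genes, the level limit of 5, the limit of 0.2 for lines and the choice of promoters to print came after seeing the data. Promoter sequences are from RefSeq, assembly GRCm38.p6.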

Additional observations from a re-analysis of the deposited data

Results flagged for a closer look

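Members whose log2 difference had opposite signs in the 2 knockout lines, by at least 0.2 in each, were singled out, and the difference between the lines was not tested. Ldhb, a lactate dehydrogenase subunit, differed between mock and wild type by 0.21 in line 1 and by -0.32 in line 2. Slc16a3, the lactate exporter, differed between Flag-Dppa2 and mock by 0.21 in line 1 and by -0.40 in line 2, while it was below wild type on all 4 knockout arrays.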

How the results depend on the processing

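In mock against wild type 3 members were called, 1 (Egln3) without the filter on dim probes, 1 (Egln3) with the replicate block, 5 with an intensity trend and 0 with the wild-type arrays averaged. Leaving out 1 array gave 0 to 1, and the 1 was Ankrd37 without mock replicate 1, measured by 1 dim array; Egln3, Kdm3a and Pdk3 lost their calls without any 1 of the 4 arrays. In Flag-Dppa2 against wild type, normexp and the intensity trend called 2 each, and in Flag-Dppa2 against mock no alternative called a member. The features called in mock against wild type (1148) became 2379 with median scaling (1713 higher and 666 lower, against 464 and 684), 384 without the filter, 1759 with the trend, 490 with the replicate block, 0 with wild type averaged and 0 to 383 with 1 array left out (0 without either wild-type array, 362 without mock replicate 1). For Flag-Dppa2 against mock (139) they became 53 with normexp, 48 without the filter, 28 above background on all arrays, 4 with the replicate block, 0 with wild type averaged, 0 on the 4 knockout arrays, 0 on these with the line as a block (chosen after seeing the data), and 0 to 112 with 1 array left out (37 without mock replicate 1, 0 without either Flag-Dppa2 array). For Flag-Dppa2 against wild type (97) they became 390 with normexp, 209 with quantile normalization, 188 in the authors' values, 6 without the filter, 23 above background on all arrays, 267 with the trend, 0 with the block, 0 with wild type averaged, 5 on the 4 arrays and 0 with any array left out. There, 27 higher and 70 lower calls became 83 and 126 with quantile normalization and 74 and 114 in the authors' values. Of 1423 values of single members under alternatives, no called one changed sign; 51 values of members not called did. In mock against wild type 20 lost a call and 5 gained one, and in Flag-Dppa2 against wild type 4 gained one. The cause was not tested. The median of the glycolytic enzymes in Flag-Dppa2 against mock ran from -0.39 to -0.20, with 14 or 15 of 15 below 0, in mock against wild type from -0.04 to 0.29, and that of the 11 sensor, Hif1a and target genes in mock against wild type from -0.90 to -0.59. The slide could be held constant only for mock against wild type, by the fit on these 2 groups alone.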

Other observations

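Neighbouring gene groups were described in the same fit. Of 8 genes for germ-cell forms of glycolytic enzymes, 4 were tested, and Ldhc, the lactate dehydrogenase of sperm, was called 5.54-fold lower in mock than in wild type (limma adjusted p = 0.0465), at -3.67 and -3.82 against -1.27 and -1.29. With Flag-Dppa2 it had -4.42 and -5.57, above background on 1 of 2 arrays, and was not nearer to wild type (adjusted p = 0.0547 against wild type). The other 3, Pgk2, Eno4 and Ldhal6b, were not called in any comparison. Of 27 genes of pyruvate entry and the citric acid cycle, 24 were tested, and 1 was called, Suclg1, a subunit of succinyl-CoA ligase. It had 5.07 and 5.08 with Flag-Dppa2, 5.02 and 5.23 in mock, and 4.31 and 4.26 in wild type, and was 1.79-fold higher in mock than in wild type (limma adjusted p = 0.0341). Over all features 6.12% were called in mock against wild type. The 24 genes had a median log2 difference of 0.08 in mock against wild type and of 0.00 in Flag-Dppa2 against wild type. In Flag-Dppa2 against mock their median was -0.09, with 19 of 24 below 0, as were 9571 of all 18755 features.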
